A study of Mus musculus with 9 samples.

Results

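The unfolded protein and integrated stress response genes described here are 35 genes chosen by symbol from a table of 35315 genes measured in mouse colon. They are the endoplasmic reticulum (ER) stress sensors and Xbp1, the factors and targets of the integrated stress response, protein disulfide isomerases, ER chaperones and secreted stress proteins, genes of ER-associated degradation, and genes of the translocon and ER membrane. All 35 had a row, and 34 passed the filter on low values (an FPKM of 1 or more in 3 or more of the 9 libraries, FPKM being fragments scaled to transcript length and library size), as did 14360 genes in all. Trib3 did not pass it, and Chac1 passed it only through the 3 DSS libraries. RNA from the colon of 8-week-old wild-type C57BL/6J mice was sequenced in 3 groups of 3 libraries. Control mice drank normal water, with no injection listed. The DSS group drank 2.5% dextran sulfate sodium, a polymer that injures the colonic epithelium, for 7 days and received solvent intravenously on days 2, 4 and 6. The GsMTx4 group drank the same DSS and was given 10 mg/kg of GsMTx4, a spider-venom peptide that blocks mechanically gated cation channels, on those days. DSS and the solvent injection therefore cannot be told apart in the comparison with Control. Whether each library is a separate mouse is not in the labels, so the p-values rest on the spread of these samples alone, which may be technical.

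The ER folds secreted and membrane proteins, and unfolded protein in its lumen activates 3 sensors, Ern1 (IRE1), Eif2ak3 (PERK) and Atf6. IRE1 splices Xbp1 mRNA into the form that encodes an active factor, ATF6 is cut to release a transcription factor, and the factors induce chaperones and degradation genes. PERK and the other eIF2 kinases slow translation and raise that of Atf4, whose targets serve amino acid supply and redox balance, a branch called the integrated stress response. In the colon the pathway is best known in cells with a heavy secretory load, such as mucus-making goblet cells and antibody-secreting plasma cells.

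Known target genes of these factors carry short DNA elements in their promoters, so the promoters of the group were read for them. RefSeq promoters of GRCm38.p6, from 250 bases before to 50 after the annotated start, were at hand for 30 of the 35 members, with 32 promoters. Derl1, Hyou1, Atf6, Sec61a1 and Manf had no entry. The ER stress element (CCAAT, 9 bases of any kind, CCACG, searched on both strands) was found in 5 of the 32 member promoters, those of Calr, Canx, Creld2, Pdia6 and Syvn1, and in 39 of all 32851 promoters (0.119%). These 5 stretches are shown because they carry the element that few promoters hold, and they belong both to members that changed and to members that did not pass. Each is printed 5′ to 3′ on the strand of its gene, and capitals mark both ends of the element. In Calr and Creld2 the element lies on the opposite strand, so the capitals are its reverse complement.
Calr: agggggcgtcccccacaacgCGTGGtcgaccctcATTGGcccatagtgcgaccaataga
Creld2: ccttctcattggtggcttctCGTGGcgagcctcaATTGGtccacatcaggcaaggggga
Pdia6: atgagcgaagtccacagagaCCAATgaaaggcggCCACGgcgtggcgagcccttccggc
Canx: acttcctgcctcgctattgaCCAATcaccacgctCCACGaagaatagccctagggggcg
Syvn1: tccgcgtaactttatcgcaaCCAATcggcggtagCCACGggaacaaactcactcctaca

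The stretch of Calr lies at chr8:84847055-84847113 on the minus strand, with the element 162 to 144 bases before the start. The stretch of Creld2 lies at chr15:88819500-88819558 on the plus strand, with the element 126 to 108 bases before the start. The stretch of Pdia6 lies at chr12:17266471-17266529 on the plus strand (98 to 80 bases before the start), that of Canx at chr11:50325780-50325838 on the minus strand (145 to 127 bases) and that of Syvn1 at chr19:6046512-6046570 on the plus strand (44 to 26 bases). The ACGTGG core bound by ATF6 and XBP1 was found in 6 of the 30 members with an entry (Edem3, Herpud1, Os9, P4hb, Pdia5 and Pdia6). It was in 8.31% of all promoters and 11.2% of those of tested genes. The UPR element (TG followed by that core, which it contains) was found in 0 members and in 0.676% of all promoters (1.07% of those of tested genes). A match is a stretch of letters, not a measured binding site, and a missing match says only that the letters are not in this window.

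The amino acid response core (TGATG, any base, AA, on both strands) is read by ATF4 at known targets. It was found in 4 of the 30 members with an entry (Asns, Chac1, Herpud1 and Trib3). It was in 3.97% of all promoters and 2.23% of those of tested genes. The first 3, in which the core lies before the start, are shown with the core in capitals. In Chac1 and Herpud1 the core lies on the opposite strand and is printed as its reverse complement.
Asns: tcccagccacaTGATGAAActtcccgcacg
Chac1: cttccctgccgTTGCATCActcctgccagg
Herpud1: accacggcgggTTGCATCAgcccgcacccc

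The Asns stretch is at chr6:7693214-7693243 on the minus strand, that of Chac1 at chr2:119351038-119351067 on the plus strand and that of Herpud1 at chr8:94386306-94386335 on the plus strand. The cores lay 23 to 16 bases before the start of Asns, 193 to 186 before that of Chac1 and 112 to 105 before that of Herpud1.

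**Figure D1:**
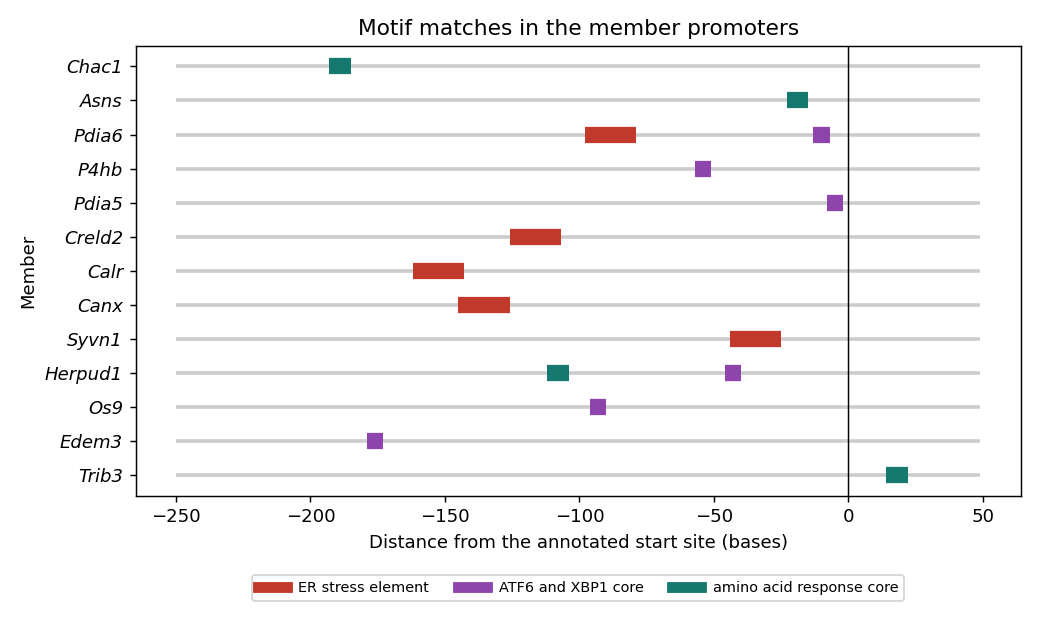
Position of each motif match in bases from the annotated start site (0, vertical line; negative is upstream) for the 13 members with a match, grey lines being the 300-base promoters. The 5 ER stress elements (red) lay between 162 and 26 bases before the start, and the match of Trib3 lay after it.

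Levels spanned a wide range. By mean FPKM over the 9 libraries, the lectin chaperone Calr led at 225, followed by the disulfide isomerases Pdia3 at 219 and P4hb at 188, and Chac1 (1.55) and Trib3 (0.401) were lowest. The members' FPKM summed to 1476, 1290 and 1252 in Control 1 to 3, to 1659, 1638 and 1862 in DSS, and to 1521, 1389 and 1231 in GsMTx4. The 3 DSS libraries were above all 6 others. In bulk tissue, fewer cells of a type and less RNA per cell cannot be told apart. The median coefficient of variation of the members was 8.71% in Control, 16.6% in DSS and 16.1% in GsMTx4, below those of all tested genes (10.8%, 20.7% and 21.6%). The members were not matched to genes of like level for this. The highest library was DSS 3 for 16 of the 34 tested members, against 17.3% of all tested genes. The lowest was GsMTx4 3 for 12 members (19.8% of all tested genes) and Control 3 for 10 (4.40%).

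**Figure D2:**
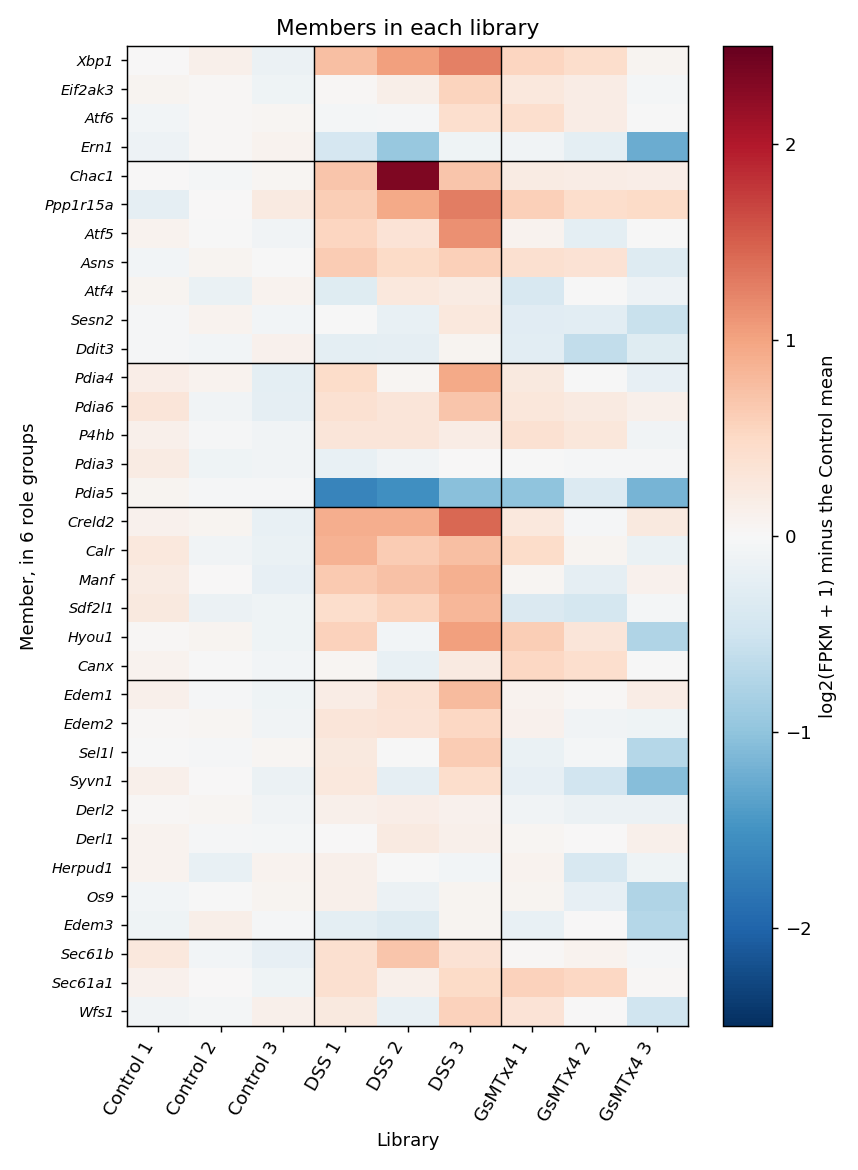
log2(FPKM + 1) of each tested member in each of the 9 libraries minus its Control mean (colour scale; red higher, blue lower), in the 6 role groups. DSS libraries are red for Xbp1, Ppp1r15a, Atf5, Calr, Sdf2l1, Manf and Creld2 and blue for Pdia5. The darkest cell is Chac1 in DSS 2 (6.88 FPKM).

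In DSS against Control, 7 members rose (Xbp1, Ppp1r15a, Atf5, Creld2, Calr, Manf and Sdf2l1), 1 fell (Pdia5) and 26 did not pass. Fold changes are on the log2(FPKM + 1) scale with their SE, and the threshold was an adjusted p of 0.05 in limma with Benjamini-Hochberg adjustment over all 14360 genes. Of all tested genes, 6.41% rose and 10.7% fell (921 and 1541 genes, or 1418 and 919 with median-of-ratios scaling). The 34 members had a median log2 fold change of 0.28 and a positive fold in 29 of 34 cases (85.3%), where all tested genes had a median of -0.17 and a positive fold in 34.5%. DSS was above Control in every library pair for 15 members and below for 1, against 13.5% and 33.6% of all tested genes. Chac1, tested only through its DSS values, is among the 15. The count of 7 fell to 3 without Control 2 or without Control 3.

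In GsMTx4 against DSS, which shares the DSS libraries with the first comparison, 5 members fell (Xbp1, Atf5, Sdf2l1, Manf and Creld2) and 0 rose, with 15 of 34 at an unadjusted p under 0.05 (44.1%, beside 30.1% of all tested genes). Of all tested genes 5.62% fell and 6.66% rose (807 and 956 genes, or 1069 and 818 with median-of-ratios scaling). The members' median log2 fold change was -0.33, and 29 of 34 folds were negative (85.3%), where all tested genes had a median of 0.07 and 43.3% negative folds. GsMTx4 lay below DSS in every library pair for 17 members, Chac1 again among them, and above for 0 (12.8% and 17.5% of all tested genes). The count of 5 was 0 without GsMTx4 2, and 3 without any 1 of Control 1, 2 or 3, DSS 3 or GsMTx4 3. In GsMTx4 against Control, 0 members passed in either direction by limma, with 5 of 34 at an unadjusted p under 0.05 (14.7%, beside 10.1% of all tested genes), and 0.188% of all tested genes rose and 0.0487% fell. The members' median log2 fold change was -0.01, beside -0.08 over all tested genes.

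**Figure D3:**
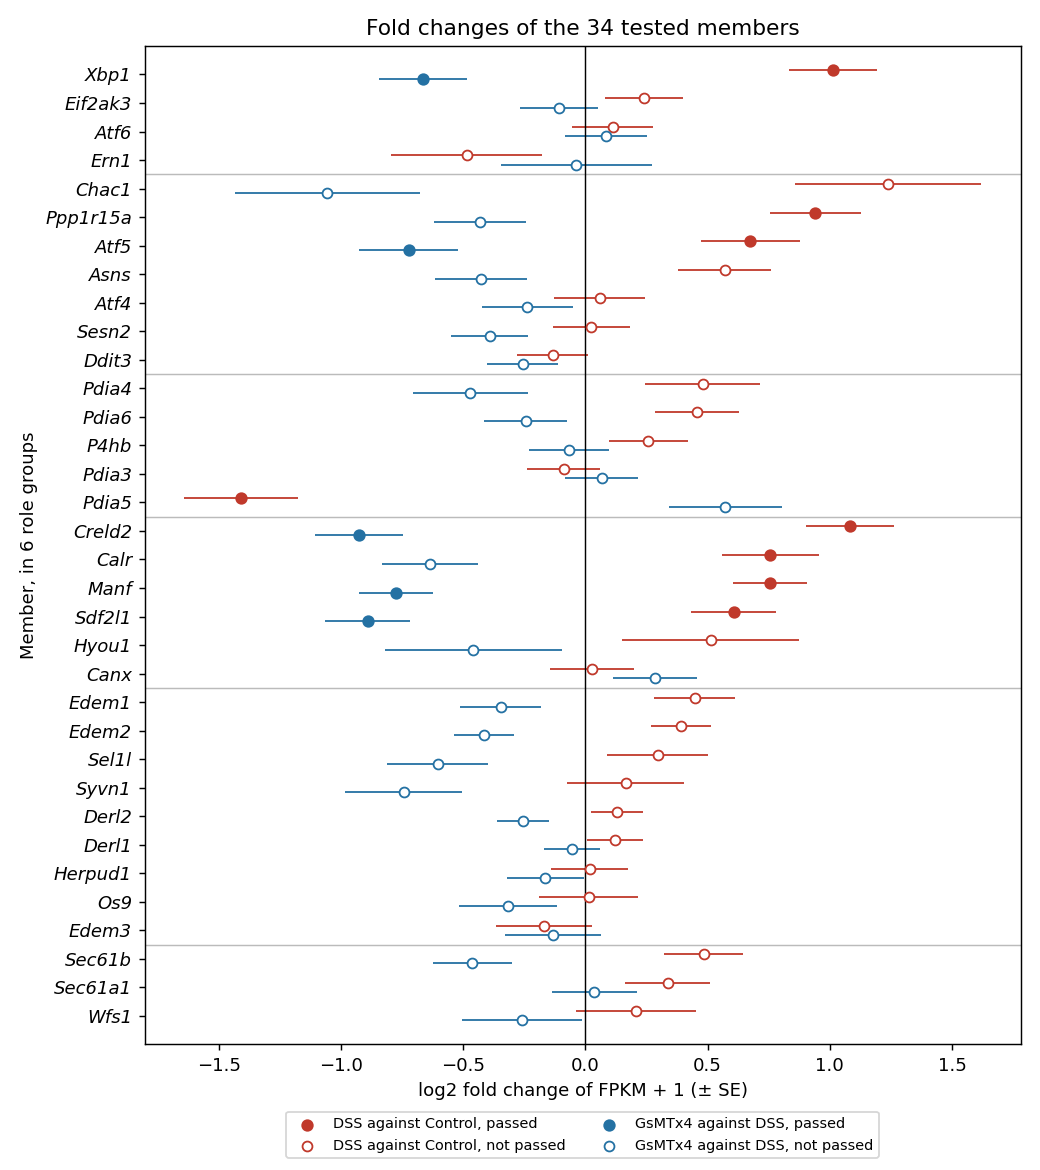
log2 fold change of FPKM + 1 (± SE) of the 34 tested members for DSS against Control (red) and GsMTx4 against DSS (blue), 3 libraries per group, with filled points for an adjusted p under 0.05 and grey lines between the 6 role groups. Most red points lie right of 0 and most blue points left of it (29 of 34 each), Pdia5 being the member furthest the other way.

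Among the sensors, the transcripts did not pass in any comparison. Ern1, the kinase and nuclease IRE1, was at 9.35, 10.6 and 11.1 FPKM in Control 1 to 3, at 7.44, 4.91 and 9.57 in DSS, and at 9.61, 8.62 and 3.77 in GsMTx4. Eif2ak3, the kinase PERK, was at 6.99, 6.73 and 6.09 in Control, 6.79, 7.40 and 10.1 in DSS, and 8.16, 7.62 and 6.33 in GsMTx4. Atf6, the membrane-bound factor, was at 7.45, 8.06 and 8.23 in Control, 7.63, 7.71 and 10.9 in DSS, and 10.9, 9.13 and 7.80 in GsMTx4. The groups of all 3 genes overlapped. Their log2 fold changes in DSS against Control were -0.49 ± 0.31 for Ern1, 0.24 ± 0.16 for Eif2ak3 and 0.11 ± 0.17 for Atf6, with adjusted p-values from limma of 0.286, 0.305 and 0.652. In GsMTx4 against DSS they were -0.04 ± 0.31, -0.11 ± 0.16 and 0.08 ± 0.17 (adjusted p 0.948, 0.690 and 0.766). The activity of these sensors is set by cleavage and phosphorylation, which transcript levels do not read.

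Xbp1, the substrate of IRE1 (chr11:5520659-5525893), rose in DSS and was lower again with GsMTx4. It was at 49.6, 54.1 and 44.6 FPKM in Control, 83.8, 102 and 119 in DSS, and 72.2, 67.1 and 51.6 in GsMTx4. Each DSS library lay above all 6 others, and GsMTx4 overlapped Control. The means were 49.4 ± 4.79, 102 ± 17.4 and 63.7 ± 10.8 (SD, n = 3 each). The log2 fold change was 1.01 ± 0.18 in DSS against Control (adjusted p = 0.00764, limma), which passed under all 16 alternative settings. In GsMTx4 against DSS it was -0.66 ± 0.18 (adjusted p = 0.0446, limma). That call was lost in 11 of the 16, including without Control 1, 2 or 3, DSS 2 or 3, or GsMTx4 2 or 3 in turn (adjusted p 0.0706 to 0.117). The values are per gene and do not separate spliced from unspliced Xbp1.

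Of the integrated stress response genes, 2 of 7 tested rose in DSS (Ppp1r15a and Atf5, 28.6%, beside 6.41% of all tested genes). With GsMTx4 1 fell (Atf5, 14.3%, beside 5.62%). The medians of the 7 log2 fold changes were 0.57 and -0.43. All 7 were negative in GsMTx4 against DSS, beside 43.3% of all tested genes. The 7 include Chac1, which passed the filter only through DSS. Atf4, the central factor, was at 63.2, 53.5 and 63.8 FPKM in Control, 48.6, 72.4 and 69.2 in DSS, and 45.0, 59.6 and 54.9 in GsMTx4. Its groups overlapped, and its log2 fold changes were 0.06 ± 0.19 in DSS against Control and -0.24 ± 0.19 in GsMTx4 against DSS (adjusted p 0.838 and 0.423, limma). Atf4 is regulated largely at translation, which these values do not measure.

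Ppp1r15a (GADD34, chr7:45522916-45526268) encodes the phosphatase subunit that reverses eIF2 phosphorylation. It was at 2.84, 3.52 and 4.27 FPKM in Control, 5.88, 7.65 and 9.89 in DSS, and 5.84, 5.11 and 5.32 in GsMTx4. Control was lowest, DSS highest and GsMTx4 between them, with no overlap between any 2 groups. The log2 fold change was 0.94 ± 0.19 in DSS against Control (adjusted p = 0.0112, limma), and it passed in all 16 alternatives. It was -0.43 ± 0.19 in GsMTx4 against DSS and 0.51 ± 0.19 in GsMTx4 against Control (adjusted p 0.159 and 0.407).

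Atf5 (chr7:44812256-44816658), a factor whose translation is regulated like that of Atf4, was at 10.3, 9.52 and 8.94 FPKM in Control, 14.4, 12.4 and 22.4 in DSS, and 10.3, 7.98 and 9.52 in GsMTx4. All DSS libraries lay above the other 6, with DSS 3 well above DSS 1 and 2. The log2 fold changes were 0.68 ± 0.20 in DSS against Control and -0.72 ± 0.20 in GsMTx4 against DSS (adjusted p 0.0494 and 0.0484, limma). Both calls lie at the threshold. The first was lost in 13 of 16 alternatives and the second in 12, each when any 1 library other than DSS 2 was left out (adjusted p 0.0528 to 0.142 and 0.0565 to 0.152). Atf5 overlaps Nup62 on the opposite strand, at a mean of 14.5 FPKM, and whether counting used strand is not given in the sources used here.

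The other integrated stress response genes did not pass. Chac1, which degrades glutathione, was at 0.571, 0.506 and 0.628 FPKM in Control, 1.52, 6.88 and 1.55 in DSS, and 0.802, 0.771 and 0.763 in GsMTx4. Every DSS library lay above the other 6, and DSS 2 lay far above the rest. Only the DSS libraries reached 1 FPKM, so Chac1 was tested through them alone. Its separation follows from the filter, and its fold changes and p-values are no independent support. Its log2 fold changes of 1.24 ± 0.38 and -1.06 ± 0.38 had adjusted p-values of 0.0533 and 0.0992 (limma). Without DSS 2 the first was 0.69 with an adjusted p of 0.0208, past the threshold, as it was without DSS 1 (0.0398) or DSS 3 (0.0445). It was 1.99 with a pseudocount of 0.1 (0.0316) and 1.60 with TPM scaling (0.0407). Asns, asparagine synthetase, ran from 6.20 to 6.90 FPKM in Control and from 9.44 to 10.7 in DSS, with 8.86, 8.65 and 4.99 in GsMTx4. Its log2 fold change in DSS against Control was 0.57 ± 0.19 (adjusted p = 0.0670, limma), and 0.00879 without GsMTx4 3, the library that stood apart in its own group.

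Ddit3, the pro-apoptotic factor CHOP, was at 9.12, 8.83 and 10.1 FPKM in Control, 7.72, 7.81 and 9.88 in DSS, and 7.65, 5.77 and 7.37 in GsMTx4. Control and DSS overlapped, and every GsMTx4 library lay below both. The log2 fold changes were -0.13 ± 0.15 in DSS against Control and -0.26 ± 0.15 in GsMTx4 against DSS (adjusted p 0.532 and 0.273, limma). Its gene overlaps Mars on the opposite strand (mean 10.8 FPKM), and a further Ddit3 entry at the same locus reached at most 0.0153 FPKM and was not tested. Sesn2, a stress-induced inhibitor of mTORC1, had log2 fold changes of 0.02 and -0.39 (adjusted p 0.924 and 0.129). Trib3, a pseudokinase induced by CHOP, lay under the filter at 0.155 to 0.432 FPKM in Control, 0.397 to 0.979 in DSS and 0.216 to 0.356 in GsMTx4.

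**Figure D4:**
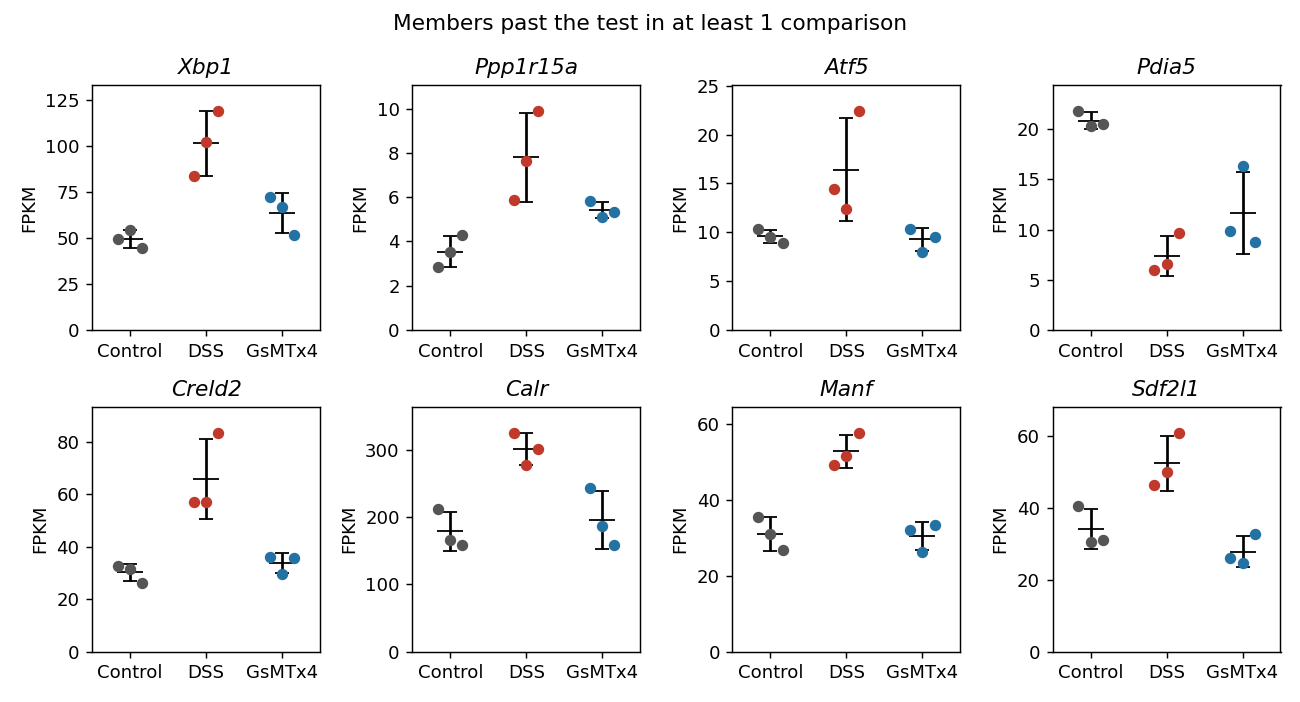
FPKM of the 8 members that passed in at least 1 comparison in each library (points), with the group mean (horizontal line) and SD (bar), n = 3 libraries per group. DSS lies above Control for 7 genes and below it for Pdia5 (7.38 against 20.9 FPKM).

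The ER chaperones and secreted stress proteins held 4 of the 7 members that rose in DSS. These were 4 of the 6 genes in this group (66.7%, beside 6.41% of all tested genes). With GsMTx4, 3 of the 6 fell, beside 5.62% of all tested genes, and these 3 were among the 4 that rose. Both comparisons share the DSS libraries, so a fall of genes picked for their rise is not independent of that rise. The 6 genes had median log2 fold changes of 0.68 and -0.71. Creld2 (chr15:88819646-88826683), a secreted ER stress protein, was at 32.6, 31.7 and 26.4 FPKM in Control, 57.1, 57.3 and 83.5 in DSS, and 36.3, 29.6 and 35.6 in GsMTx4. Among the 7 it had the largest log2 fold change in DSS against Control, with means of 30.2 ± 3.33, 66.0 ± 15.2 and 33.8 ± 3.66 (SD, n = 3), and GsMTx4 overlapped Control. The log2 fold changes were 1.08 ± 0.18 and -0.93 ± 0.18 (adjusted p 0.00564 and 0.0140, limma). The rise passed in all 16 alternatives, and the fall was lost in 2, without GsMTx4 2 (0.0570) and with only the 2 groups compared (0.0529).

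Manf (chr9:106838312-106891979), a secreted survival factor kept in the ER until stress, was at 35.5, 31.0 and 26.7 FPKM in Control, 49.2, 51.7 and 57.7 in DSS, and 32.1, 26.3 and 33.3 in GsMTx4. The DSS libraries lay above the other 6. The log2 fold changes were 0.76 ± 0.15 and -0.78 ± 0.15 (adjusted p 0.0118 and 0.0147, limma). The rise was lost without Control 2 (0.0514) or Control 3 (0.0554). The fall was lost without GsMTx4 2 (0.0569) and with only the 2 groups compared (0.0508). Manf overlaps Rbm15b (same strand, 7.29 FPKM on average) and Dcaf1 (opposite strand, 3.84), so reads in the shared stretches are uncertain.

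Sdf2l1 (chr16:17130138-17132383), a partner of the ER chaperone BiP, was at 40.5, 30.6 and 31.2 FPKM in Control, 46.4, 49.9 and 60.9 in DSS, and 26.1, 24.6 and 32.8 in GsMTx4. DSS again lay above all others, and GsMTx4 overlapped Control. The log2 fold changes were 0.61 ± 0.17 and -0.89 ± 0.17 (adjusted p 0.0422 and 0.0142, limma). The rise was lost in 10 of 16 alternatives, including without Control 2 or 3, DSS 1, 2 or 3, or GsMTx4 1 or 2 (0.0513 to 0.147), and the fall only without GsMTx4 2 (0.0575).

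Calr (calreticulin, chr8:84841850-84846934) binds the glycans of folding glycoproteins and was the most abundant member. It was at 212, 166 and 159 FPKM in Control, 325, 278 and 301 in DSS, and 243, 187 and 158 in GsMTx4. DSS was above the other 6 libraries. The log2 fold changes were 0.76 ± 0.20 and -0.64 ± 0.20 (adjusted p 0.0313 and 0.0670, limma). The rise was lost in 7 of 16 alternatives, among them without Control 2 or 3 or any 1 DSS library (0.0538 to 0.116). The second comparison passed without GsMTx4 1 (0.0322). Its membrane-bound relative Canx (calnexin), whose promoter also holds the ER stress element, ran from 51.0 to 56.9 FPKM in Control, 47.2 to 62.6 in DSS and 53.6 to 77.6 in GsMTx4. Canx had log2 fold changes of 0.03 ± 0.17 and 0.29 ± 0.17 (adjusted p 0.923 and 0.296). The large chaperone Hyou1 varied widely, at 15.4, 9.36 and 21.3 in DSS and 15.7, 12.5 and 5.48 in GsMTx4, with log2 fold changes of 0.51 ± 0.36 and -0.46 ± 0.36 (adjusted p 0.332 and 0.429).

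The protein disulfide isomerases, which form and reshuffle disulfide bonds in the ER, did not share a direction. Pdia5 (chr16:35397312-35490873) was the 1 member that fell in DSS. It was at 21.8, 20.3 and 20.5 FPKM in Control, 5.98, 6.52 and 9.63 in DSS, and 9.90, 16.3 and 8.73 in GsMTx4. Every DSS and GsMTx4 library lay below Control, and GsMTx4 overlapped DSS. The means were 20.9 ± 0.835, 7.38 ± 1.97 and 11.6 ± 4.06 (SD, n = 3). The log2 fold change in DSS against Control was -1.41 ± 0.23 (adjusted p = 0.00549, limma), past the threshold in all 16 alternatives. It was 0.57 ± 0.23 in GsMTx4 against DSS and -0.84 ± 0.23 in GsMTx4 against Control (adjusted p 0.134 and 0.288).

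The other 4 isomerases did not pass. Pdia4 and Pdia6 had log2 fold changes of 0.48 ± 0.24 and 0.46 ± 0.17 in DSS against Control (adjusted p 0.180 and 0.0946, limma) and of -0.47 ± 0.24 and -0.25 ± 0.17 in GsMTx4 against DSS (0.215 and 0.371). P4hb (PDI itself) was at 157 to 184 FPKM in Control and 190 to 208 in DSS, without overlap, with a log2 fold change of 0.26 ± 0.16 (adjusted p = 0.282). Pdia3 (ERp57), the partner of calreticulin on glycoproteins, stayed between 196 and 258 FPKM in all 9 libraries. Its log2 fold changes were -0.09 ± 0.15 and 0.07 ± 0.15 (adjusted p 0.686 and 0.796), beside the rise of Calr.

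Of the 9 genes of ER-associated degradation, 0 passed in either comparison by limma, with 2 of 9 at an unadjusted p under 0.05 in DSS against Control (22.2%, beside 34.9% of all tested genes) and 4 of 9 in GsMTx4 against DSS (44.4%, beside 30.1%). The median log2 fold changes were 0.13 and -0.32. All 9 folds were negative in the second comparison, beside 43.3% of all tested genes. Edem2, a mannosidase-like protein that marks glycoproteins for removal, came closest. It was at 16.8, 17.0 and 15.3 FPKM in Control, 20.3, 21.1 and 23.8 in DSS, and 17.8, 15.4 and 15.0 in GsMTx4, so that DSS lay above all others. Its log2 fold changes were 0.39 ± 0.12 and -0.42 ± 0.12 (adjusted p 0.0572 and 0.0571). Without GsMTx4 3 the first passed (0.0452) and without GsMTx4 1 the second (0.0435). Edem1 also had DSS above Control in every pair, with 0.45 ± 0.17 and -0.35 ± 0.17 (adjusted p 0.0906 and 0.195).

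The ubiquitin ligase Syvn1 (HRD1) and its partner Sel1l had the most negative values of these 9 in GsMTx4 against DSS. Syvn1 was at 13.9, 12.8 and 11.4 FPKM in Control, 15.4, 10.7 and 17.6 in DSS, and 10.9, 8.81 and 5.55 in GsMTx4, and DSS overlapped both groups. Its log2 fold changes were 0.17 ± 0.24 and -0.74 ± 0.24 (adjusted p 0.641 and 0.0743, limma). The second passed without DSS 2 (0.0485) or GsMTx4 1 (0.0419). Syvn1 overlaps Mrpl49 on the opposite strand (14.5 FPKM on average). Sel1l was at 12.0, 13.0 and 7.89 in GsMTx4, below every Control and DSS library, with -0.61 ± 0.21 against DSS (adjusted p = 0.0881). The remaining 5 (Herpud1, Edem3, Derl1, Derl2 and Os9) had log2 fold changes between -0.17 and 0.13 in DSS against Control and between -0.32 and -0.05 in GsMTx4 against DSS. Derl2, a channel component, differed little in size but without overlap, at 6.80 to 7.14 FPKM in DSS, 5.88 to 6.54 in Control and 5.55 to 5.85 in GsMTx4. Its gene overlaps Mis12 on the opposite strand (8.16 FPKM on average).

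In the translocon, through which new proteins enter the ER, Sec61b was at 76.4, 60.5 and 54.5 FPKM in Control, 83.9, 103 and 80.9 in DSS, and 64.1, 66.9 and 61.6 in GsMTx4. DSS lay above both other groups, and the log2 fold changes of 0.48 ± 0.16 and -0.46 ± 0.16 did not pass (adjusted p 0.0682 and 0.0927, limma). The channel subunit Sec61a1 ran from 22.5 to 26.4 FPKM in Control, 26.7 to 34.6 in DSS and 25.0 to 36.8 in GsMTx4, with 0.34 ± 0.17 and 0.04 ± 0.17 (adjusted p 0.197 and 0.909). Wfs1, an ER membrane protein that restrains ATF6, had 0.21 ± 0.25 and -0.26 ± 0.25 (adjusted p 0.563 and 0.512).

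The other genes of the pathway were read from lists of 93 symbols, of which 92 had a row and 89 were tested. In DSS against Control 6 rose, 6 fell and 77 did not pass (6.74% each way, beside 6.41% and 10.7% of all tested genes), with a median log2 fold change of -0.02. In GsMTx4 against DSS 4 rose and 7 fell (4.49% and 7.87%, beside 6.66% and 5.62% of all tested genes), with a median of -0.01. In GsMTx4 against Control 0 passed by limma, with 8 at an unadjusted p under 0.05 (8.99%, beside 10.1% of all tested genes). With median-of-ratios scaling 11 rose in DSS, and with only the 2 groups compared 1 fell with GsMTx4. The first 2 counts were both 3 without Control 2, with 3 higher also without Control 1 and 3 lower without Control 3. The 4 that rose with GsMTx4 were 1 without DSS 1, DSS 2 or GsMTx4 2 and 2 without Control 1, 2 or 3, DSS 3 or GsMTx4 1. The 7 that fell were 2 without GsMTx4 2, 3 without Control 1 or DSS 3, and 4 without Control 2, Control 3 or GsMTx4 3.

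Among 18 other chaperones and folding enzymes 2 rose in DSS (11.1%, beside 6.41% of all tested genes), and 3 fell with GsMTx4 (16.7%, beside 5.62%). Ero1lb, an oxidase that recharges disulfide isomerases, had log2 fold changes of 0.81 ± 0.15 and -0.80 ± 0.15 (adjusted p 0.00781 and 0.0114, limma). The fall of Ero1lb was lost with only the 2 groups compared (0.051). Dnajb11, a BiP cochaperone, had 0.61 ± 0.15 and -0.64 ± 0.15 (0.0286 and 0.0297). Its rise was lost without any 1 Control library or without DSS 1 or DSS 3 (0.0683 to 0.105). Its fall was lost without any 1 library but DSS 2 and GsMTx4 1 (0.0504 to 0.0808). Hspa5 (BiP), the chaperone that holds the sensors inactive, is given after its values were seen. It was at 117, 69.2 and 78.7 FPKM in Control, 144, 90.1 and 203 in DSS, and 137, 71.1 and 62.3 in GsMTx4, and all groups overlapped (0.68 ± 0.37 and -0.70 ± 0.37, adjusted p 0.222 and 0.240). The ER stress element was also in the promoters of Hspa5, Hsp90b1, Dnajc3 and Derl3, 4 of the 74 other pathway genes with a promoter entry.

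Of 9 other sensors and bZIP factors, 3 fell in DSS (33.3%, beside 10.7% of all tested genes) and 1 rose with GsMTx4 (11.1%, beside 6.66%). Creb3l1, an ATF6-like membrane factor, had log2 fold changes of -1.42 ± 0.22 and 0.81 ± 0.22 (adjusted p 0.00486 and 0.0480, limma), the second lost without any 1 library but GsMTx4 3 (0.0655 to 0.150). Ern2, the epithelial relative of Ern1, was at 21.7, 33.4 and 34.1 FPKM in Control and 8.34, 8.90 and 16.2 in DSS. Its log2 fold change of -1.37 ± 0.32 (adjusted p = 0.0206, limma) did not pass without Control 2 or 3 or DSS 1 or 2 (0.0566 to 0.0780). Ern1 itself, described above, had a smaller negative fold that did not pass.

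Of 12 other genes of ER-associated degradation, Derl3 rose in DSS and fell with GsMTx4, with log2 fold changes of 1.26 ± 0.28 and -1.11 ± 0.28 (adjusted p 0.0184 and 0.0364, limma). The rise was lost without Control 1 or Control 3 (0.0544 and 0.0674) and the fall without Control 1, DSS 1 or 3, or any 1 GsMTx4 library (0.0510 to 0.114). Ube2g2, a ubiquitin-conjugating enzyme, rose with GsMTx4 by 1.07 ± 0.27 (0.0345), lost without any 1 DSS library or GsMTx4 2 or 3 (0.0527 to 0.117). Of 19 translocation and glycosylation genes 0 passed in either comparison by limma, with 1 at an unadjusted p under 0.05 in each (5.26%, beside 34.9% and 30.1% of all tested genes). Of 7 other eIF2 kinases and eIF2 genes, Eif2ak2, the RNA-activated kinase PKR, fell in DSS by 1.11 on the log2 scale (SE 0.17, adjusted p = 0.00473). Its value in GsMTx4 against DSS was 0.62 ± 0.17 (0.0504), and it passed without DSS 3 (0.0445) or GsMTx4 3 (0.0320).

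Of 24 other ATF4 target genes 3 rose and 2 fell in DSS (12.5% and 8.33%, beside 6.41% and 10.7% of all tested genes). With GsMTx4 2 rose and 3 fell (8.33% and 12.5%, beside 6.66% and 5.62%). Cebpb, a bZIP factor also induced by inflammatory cytokines, was at 13.5, 9.72 and 12.2 FPKM in Control, 25.0, 36.2 and 39.1 in DSS, and 8.63, 8.70 and 10.1 in GsMTx4. Its log2 fold changes were 1.41 ± 0.19 and -1.74 ± 0.19 (adjusted p 0.00243 and 0.00183, limma). Cth, a cysteine-making enzyme, went the other way, with -1.71 ± 0.20 and 1.31 ± 0.20 (0.00154 and 0.00615). Both genes passed in all 16 alternatives of both comparisons.

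Markers of several cell types moved with the members. The 7 plasma cell markers summed to 335 to 484 FPKM in Control, 568 to 831 in DSS and 404 to 475 in GsMTx4, without overlap of DSS with either group, and were highest in DSS 3. Of these 7, 5 rose in DSS and 4 fell with GsMTx4. Sdc1 and Tnfrsf17 passed in neither comparison. Their log2 fold changes in DSS against Control were 0.10 ± 0.15 and 0.04 ± 0.38 (adjusted p 0.644 and 0.953, limma). Mzb1, a cochaperone of antibody assembly, was at 14.8 to 23.5 FPKM in Control, 42.5 to 84.5 in DSS and 16.8 to 27.3 in GsMTx4. Its log2 fold changes were 1.48 ± 0.29 and -1.30 ± 0.29 (adjusted p 0.0106 and 0.0226, limma), the second lost without GsMTx4 2 (0.0876). Pou2af1, a B-lineage coactivator, had 1.74 ± 0.24 and -1.67 ± 0.24 (0.00281 and 0.00505), in all 16 alternatives of both. Both were named after their values were seen. The rise of Jchain was lost without Control 2 or 3, any 1 DSS library, or GsMTx4 1 or 2 (0.0580 to 0.169), that of Irf4 without Control 3 (0.0609) and that of Prdm1 without Control 1 or 2 or DSS 3 (0.0553 to 0.0721). With GsMTx4, the fall of Irf4 was lost without Control 2, DSS 1 or 3, or any 1 GsMTx4 library (0.0506 to 0.0863) and that of Prdm1 without DSS 3 or GsMTx4 2 (0.0648 and 0.0798). The part of plasma cells in the members' values was not tested.

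The 6 macrophage markers summed to 240 to 287 FPKM in Control, 315 to 448 in DSS and 205 to 280 in GsMTx4, and 2 rose in DSS and 3 fell with GsMTx4. The 6 neutrophil markers summed to 1.67 to 2.35, 56.4 to 281 and 4.41 to 43.1 FPKM. Of these, 3 were tested, 2 rose in DSS, 1 fell with GsMTx4, and S100a9, Cxcr2 and Mmp8 were at 0 in some library. S100a8 was 1 of the 2 that rose and the 1 that fell. Outside DSS it reached 1 FPKM only in GsMTx4 1 (11.2 FPKM). It thus met the filter only through DSS, and its calls are no independent support. The 6 absorptive colonocyte markers summed to 1575 to 2213, 2366 to 3044 and 1586 to 1708 FPKM, with 1 higher and 1 lower in DSS and 2 higher and 2 lower with GsMTx4. The sums of these 3 lists and of the members were thus all highest in DSS, though the colonocyte markers did not share a direction. The part of these cell types in the members' values was not tested.

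The 8 goblet cell markers summed to 3662 to 5548 FPKM in Control, 2983 to 6575 in DSS and 2733 to 3963 in GsMTx4, with overlap throughout. Their median log2 fold change in DSS against Control was -0.12, with 3 of 8 folds positive, and the 1 that passed was Atoh1, the secretory lineage factor (-1.53 ± 0.23, adjusted p = 0.00409, limma). The 6 general epithelium markers overlapped, at 3108 to 3964, 2934 to 3809 and 3187 to 3902 FPKM, with 1 lower in DSS and 1 higher with GsMTx4. Fibroblast markers summed to 122 to 140, 123 to 266 and 105 to 131 FPKM, with 0 of 6 passing in DSS and 3 lower with GsMTx4. Smooth muscle markers summed to 414 to 668, 198 to 804 and 523 to 691 FPKM, and 0 of 6 passed by limma, with 0 at an unadjusted p under 0.05. The hepatocyte markers summed to 20.7 to 26.8 FPKM in Control, 3.0 to 7.02 in DSS and 38.2 to 55.7 in GsMTx4, with 2 of 6 lower in DSS and 6 of 6 higher with GsMTx4 than in DSS. Most of the Control and DSS sums was Ttr, at 19.1 to 24.5 FPKM in Control, 2.08 to 5.19 in DSS and 9.70 to 24.9 in GsMTx4, and the other 5 markers, but not Ttr, were also higher in GsMTx4 than in Control. Apoa1, Fgb and Serpina1a were at 0 in some library and reached 1 FPKM only with GsMTx4. Outside that group Alb reached it only in Control 1 (1.22 FPKM). These genes passed the filter only through GsMTx4, so their higher calls in that group are no independent support. Pancreatic acinar markers summed to at most 0.440 FPKM in any library, with 4 of 6 symbols in the table and 0 tested.

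**Figure D5:**
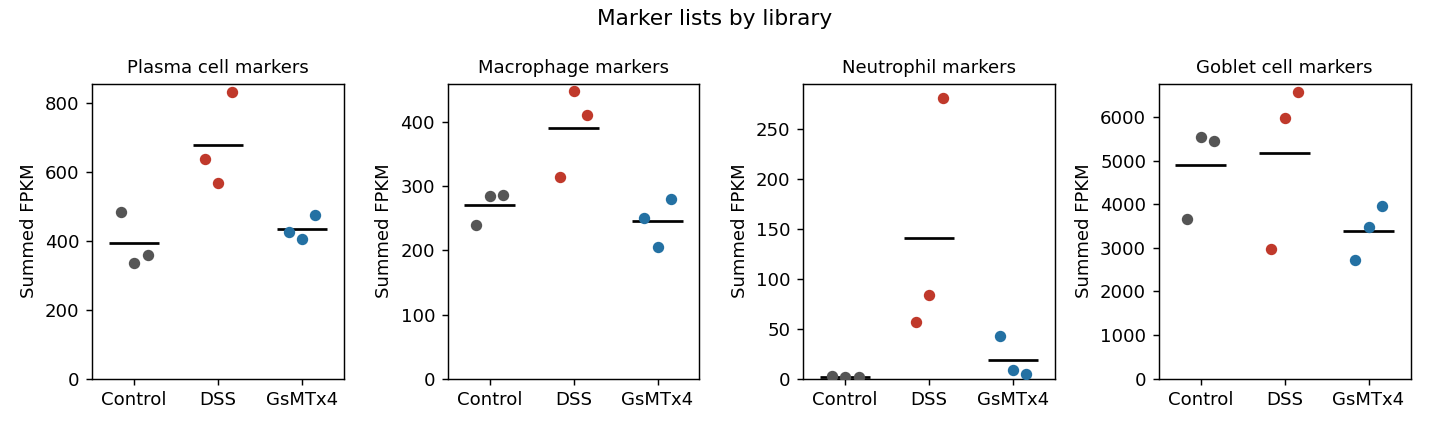
Summed FPKM of plasma cell, macrophage, neutrophil and goblet cell markers in each library (points) with the group mean (line), 3 libraries per group. DSS lies above both other groups for the first 3 lists (plasma cell markers from 568 to 831), and the goblet cell sums overlap.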

How the data were processed

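The authors deposited FPKM values for 35315 genes in 9 colon libraries. The submitters' processing notes list cutadapt, FastQC and the build GRCm38. The aligner and the FPKM program were not given in the sources used here. Such values carry no counts, so depth is unknown. FPKM sums ran from 349125 to 440935 per library. Symbols and positions came from GENCODE M21, promoters from RefSeq (GRCm38.p6).

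Values were transformed to log2(FPKM + 1), which understates changes of low genes. limma 3.58.1 (R 4.3.3) fitted all 9 libraries with 1 mean per group, trended empirical Bayes and 6 residual degrees of freedom, two-sided, with Benjamini-Hochberg adjustment over 14360 genes having FPKM of at least 1 in at least 3 libraries. The fit was tested on simulated data. Alternatives were a pseudocount of 0.1, no filter, a mean FPKM filter of 5, TPM or median-of-ratios scaling, only the 2 groups compared, a replicate block, and each library left out. Members and lists were chosen with earlier results of these data known. All members are accounted for, with library values for those that passed and 5 signalling genes. Of each other pathway list, the 2 passing genes with the smallest p per comparison are named. Other passing genes of those lists are counted only, and other genes named were chosen after their values were seen. Plots used matplotlib 3.10.9.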

Additional observations from a re-analysis of the deposited data

How the results depend on the processing

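Under the 16 alternatives, 0 of the members that passed changed direction. Under each of them Pdia5 alone fell in DSS, and 0 members passed in GsMTx4 against Control. The 7 members that rose in DSS became 4 with no filter on low values and 13 with median-of-ratios scaling, and 3 to 8 with each library left out. The 5 that fell with GsMTx4 became 3 with no filter, 3 with TPM scaling, 8 with median-of-ratios scaling, 1 with only the 2 groups compared, and 0 to 7 with each library left out. With the replicate number as a block they were 3, and the 7 became 5. The numbers were not treated as pairs, since same-numbered libraries had correlations of deviations of -0.23 to 0.10 and a library matched its own number best in 5 of 18 cases. The cause of these shifts was not tested.

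In DSS against Control, the median log2 fold change over all tested genes went from -0.17 to -0.01 with median-of-ratios scaling and to -0.27 with TPM scaling, while the members' median was 0.28, 0.47 and 0.20. The members' median in GsMTx4 against Control lay between -0.11 and 0.11. Of the other pathway genes, the 6 that rose in DSS were 11 with median-of-ratios scaling. The 4 that rose with GsMTx4 were 1 with no filter and 2 with TPM scaling, with 2 groups or with the block, and the 7 that fell were 4, 3, 1 and 3. Over all genes, the 921 that rose in DSS were 579 with the mean FPKM filter and 382 to 1094 with each library left out, and the 1541 that fell were 992, 919 with median-of-ratios scaling, 995 with the block and 581 to 2007. With GsMTx4 the 956 that rose were 590 with no filter, 327 with 2 groups, 553 with the block and 393 to 1209, and the 807 that fell were 483, 260, 525 and 323 to 787, and 495 with the mean FPKM filter. Against Control, the 27 that rose with GsMTx4 were 3 with the mean FPKM filter and 12 to 70, and the 7 that fell were 2 to 12 and 1 to 13.

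Depth is unknown, so counting error cannot be given, and values near 0 FPKM such as those of Trib3 and Chac1 are the least certain. With 3 libraries a group, a miss of the threshold does not show that levels were equal.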
